A study of Mus musculus with 12 samples.

Results

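Heat shock proteins and their co-chaperones are the protein folding machinery that cells raise under heat, oxidants and other stress, and many of them also work constantly in unstressed cells. HSP70 proteins bind unfolded chains in an ATP-driven cycle, J proteins (the Dnaj families) deliver those chains and start ATP hydrolysis, and BAG and HSP110 proteins exchange the nucleotide. HSP90 proteins mature signalling proteins, HSP60 with its lid HSP10 folds proteins inside mitochondria, small HSPs hold unfolded proteins, and heat shock factors (HSFs) switch on the stress-inducible members. In lymphocytes these genes are also known to respond to handling and to activation.

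The members were chosen by gene name alone. A probe set of the array was taken when the platform annotation gave it exactly 1 gene symbol and that symbol was of the type Hspa, Hspb, Hspd, Hspe or Hsph with a number, Hsp90, Dnaja, Dnajb or Dnajc with a number, Bag1 to Bag6 or Hsf1 to Hsf5, and the brightest probe set by its mean over the 12 arrays stood for a gene. This gave 76 of the 22180 named genes. They were 11 HSP70 genes, 3 HSP110 genes, 2 HSP90 genes, 3 DNAJA, 12 DNAJB and 26 DNAJC genes, 6 BAG genes, 7 small HSPs, the 2 mitochondrial chaperonin genes Hspd1 and Hspe1, and 4 heat shock factors. A further 15 probe sets named a gene of this kind together with another gene and were not used, among them 1 shared by Hspa1a and Hspa1b. Hsp90ab1, Dnaja1 and Hsf1 are not analysed here.

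The series profiled invariant natural killer T (iNKT) cells, which are alpha-beta T cells that read lipids on CD1d, and its title concerns those expressing the transcription factor RORγt, which drives the interleukin 17 (type 17) program. Total RNA was hybridised to 1 Affymetrix whole-transcript array per sample. The groups were iNKT17 cells of BALB/c mice (3 arrays), cells named ROR- of BALB/c mice (3), iNKT17 cells of B6 mice (2), gamma-delta 17 cells of B6 mice (2) and ROR- cells of B6 mice (2). The labels give strain and cell phenotype but no sort, organ, age or transgene, they do not give the number of animals behind the replicates, and the extraction protocol speaks of frozen tissue. P-values therefore cover the spread among these arrays and no more, and that spread may be technical.

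The labels were first checked against marker genes. The 4 T cell markers on the array, Cd3d, Cd3e, Cd3g and Zbtb16, had a mean log2 level between 10.2 and 10.9 on every array. The 8 type 17 markers averaged 7.92 to 8.22 on BALB/c iNKT17 arrays, 7.68 to 8.08 on B6 iNKT17 arrays and 8.34 to 8.84 on gamma-delta 17 arrays, against 4.21 to 5.93 on BALB/c ROR- arrays and 4.08 to 4.54 on B6 ROR- arrays. BALB/c ROR- replicate 2 held that 5.93, with Il23r at 7.0, against 3.05 and 3.37 on the other ROR- arrays of that strain. The 9 type 1 and NK markers averaged 8.21 to 9.08 on BALB/c ROR- arrays and 9.30 to 9.70 on B6 ROR- arrays. They averaged 5.63 to 5.81 on BALB/c iNKT17 arrays, 5.90 to 6.01 on B6 iNKT17 arrays, and 6.86 and 5.70 on gamma-delta 17 replicates 1 and 2. Neutrophil markers averaged 6.28 on gamma-delta 17 replicate 1, against 3.38 to 3.53 on the other arrays. Cell cycle genes averaged 6.03, 8.37 and 6.60 on BALB/c iNKT17 arrays, 7.66, 5.94 and 6.12 on BALB/c ROR- arrays, 8.50 and 9.26 on B6 iNKT17 arrays, 8.51 on each gamma-delta 17 array, and 7.59 and 8.57 on B6 ROR- arrays. In bulk RNA of this kind, fewer cells of a type and less RNA per cell cannot be told apart.

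Genes entered the test if 2 or more arrays exceeded a log2 level of 3.45, which is the 30th percentile over probe sets with a name. Of the members, 70 passed and 6 did not (Dnajb3, Dnajb7, Dnajc5g, Hsf3, Hsf5 and Hspb8). Every value below is the deposited log2 level, and every difference is a limma estimate in log2 units with its standard error (SE). Adjusted p-values are Benjamini-Hochberg values over all 16667 genes tested, and a gene is called when that value is under 0.05.

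Of all genes tested, those that varied most within groups were members, the stress-inducible HSP70 genes Hspa1a and Hspa1b. Their pooled within-group SDs were 2.63 and 2.44 log2 units, ranks 1 and 2 of the 16667 genes, where the median was 0.19 for the tested members and 0.18 for all genes. Hspa1a had levels of 10.34, 7.50 and 3.55 on BALB/c iNKT17 arrays, 8.33, 10.73 and 3.95 on BALB/c ROR- arrays, 4.28 and 4.95 on B6 iNKT17 arrays, 4.31 and 4.19 on gamma-delta 17 arrays, and 5.35 and 6.98 on B6 ROR- arrays. High and low arrays stood side by side within each BALB/c group, so those groups overlapped almost fully, and none of the 6 B6 arrays reached the 4 highest BALB/c ones. In order of level, BALB/c iNKT17 and ROR- arrays stood near each other, at 10.34 and 10.73, 7.50 and 8.33, and 3.55 and 3.95. The iNKT17 array was the lower each time. These matches cross replicate numbers and were seen after the values were known, and pairing across numbers was not modelled. Hspa1b had levels of 10.86, 7.81 and 4.62 on BALB/c iNKT17 arrays, 8.12, 11.31 and 4.93 on BALB/c ROR- arrays, 4.44 and 5.28 on B6 iNKT17 arrays, 4.13 and 4.51 on gamma-delta 17 arrays, and 5.28 and 6.95 on B6 ROR- arrays. Both genes spanned 7.18 log2 units over the 12 arrays.

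**Figure D1:**
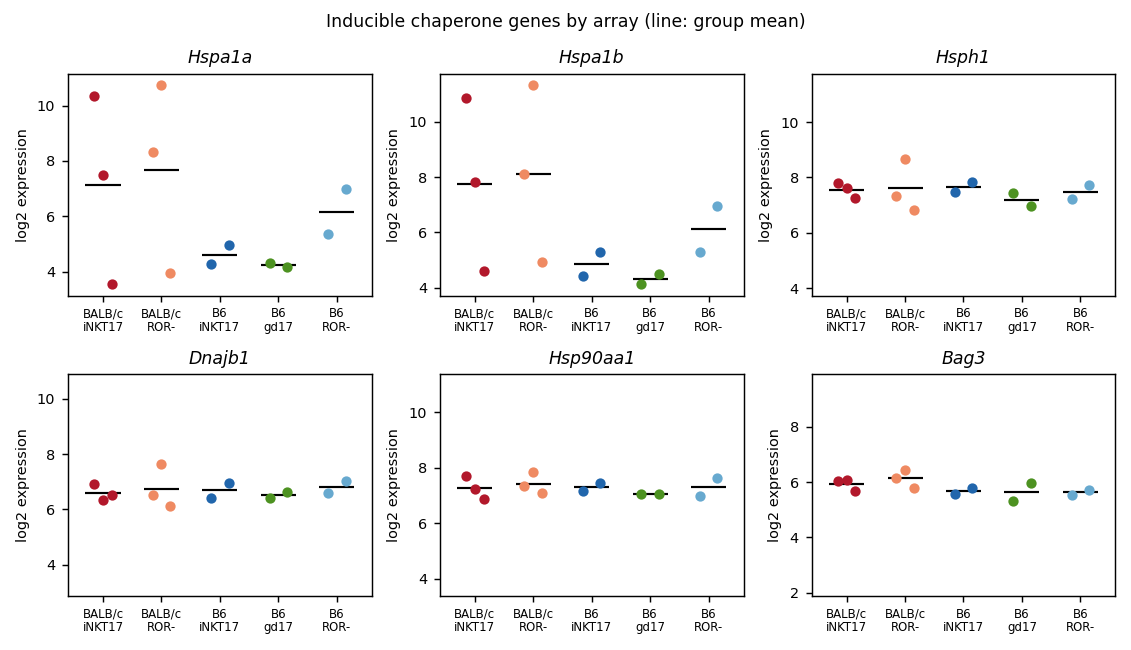
Log2 expression (vertical axis) of 6 stress-inducible chaperone genes on each of the 12 arrays (points), with the group mean as a line and every panel drawn over at least 8 log2 units, where gd17 stands for gamma-delta 17. Hspa1a and Hspa1b run from about the dimmest to the brightest part of their panels within each BALB/c group, while Hsph1, Dnajb1, Hsp90aa1 and Bag3 stay within 1.83 log2 units.

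Hspa1a and Hspa1b are near-identical neighbours, and how far their probe sets share target sequence was not examined, so the pair is best read as 1 signal and the split between them is uncertain. Their RefSeq promoter windows (assembly GRCm38.p6, 250 bases before to 50 bases after the annotated start, minus strand) differed at 4 of 300 positions. They lie at chr17:34972107-34972406 for Hspa1a and chr17:34959189-34959488 for Hspa1b. They are shown because these genes moved together over the arrays, with capitals marking the 8-base heat shock element that the script found, which is the inverted repeat bound by heat shock factors and was searched on both strands as GAANNTTC or TTCNNGAA.
Hspa1a: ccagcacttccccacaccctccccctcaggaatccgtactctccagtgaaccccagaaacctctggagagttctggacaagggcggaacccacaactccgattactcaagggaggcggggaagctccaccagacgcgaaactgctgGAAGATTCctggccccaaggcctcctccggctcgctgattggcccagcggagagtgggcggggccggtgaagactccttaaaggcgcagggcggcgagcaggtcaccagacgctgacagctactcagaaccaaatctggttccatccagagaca
Hspa1b: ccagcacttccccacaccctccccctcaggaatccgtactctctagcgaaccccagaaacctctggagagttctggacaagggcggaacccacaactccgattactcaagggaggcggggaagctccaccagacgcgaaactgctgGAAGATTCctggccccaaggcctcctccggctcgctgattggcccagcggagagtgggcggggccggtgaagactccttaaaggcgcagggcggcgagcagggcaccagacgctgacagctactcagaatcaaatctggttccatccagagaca
The element starts 104 bases before the annotated start in both windows. Of the 62 members with a promoter window in RefSeq, 17 held at least 1 such element (27.4%), against 17% of the 27025 genes with a window. A longer run of at least 3 alternating GAA and TTC units, each 2 bases apart, was present in 4 of the 62 (6.45%: Hspd1, Hspe1, Hsph1 and Dnajb6), against 0.662% of all genes. The Hspd1 and Hspe1 windows overlap by 285 bases, so the same run is counted for both genes. The near-identical Hspa1a and Hspa1b windows are likewise counted apart, and these shares do not rest on independent windows. These are letter matches in a fixed window and not measured binding.

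The other inducible members varied far less. Hsph1, an HSP110 that exchanges HSP70's nucleotide, had a within-group SD of 0.56 (rank 342), and Dnajb1, the inducible J protein partner of HSP70, had 0.49 (rank 491). Hsph1 reached its highest level, 8.65, on BALB/c ROR- replicate 2, and Dnajb1 did so as well, at 7.63. The remaining Hsph1 levels lay between 6.82 and 7.82 and the remaining Dnajb1 levels between 6.13 and 7.04. BALB/c ROR- replicate 2 thus stood highest for both, as it did for Hspa1a and Hspa1b.

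Each of the 69 other tested members was correlated with Hspa1b over the 12 arrays, with 100000 permutations and p-values adjusted over the 69; this was done with the spread of Hspa1b already known. Hspa1a followed it with Pearson r = 0.986 (permutation p = 1e-05, the smallest that could be reached, adjusted p = 0.00069) and Spearman rho = 0.867 (permutation p = 0.00064, adjusted p = 0.0442). Without the 2 arrays farthest from the median of Hspa1b, BALB/c ROR- replicate 2 and BALB/c iNKT17 replicate 1, r was 0.967, and it was 0.991 within BALB/c and 0.980 within B6 arrays. Hsp90aa1, the stress-inducible cytosolic HSP90, had r = 0.848 (permutation p = 0.00078, adjusted p = 0.0269) but rho = 0.734 (permutation p = 0.00869, adjusted p = 0.200), and r was 0.606 without those 2 arrays, 0.977 within BALB/c and 0.784 within B6. Bag3, an HSP70 co-chaperone that is itself heat-inducible, had r = 0.793 (permutation p = 0.00168, adjusted p = 0.0386) and rho = 0.755 (permutation p = 0.00612, adjusted p = 0.200), with r = 0.698 without the 2 arrays, 0.850 within BALB/c and 0.270 within B6. Of the 3, only Hspa1a passed by both measures, and it is best read as 1 signal with Hspa1b. The permutations ran over all 12 arrays, so differences between strains and groups enter these p-values. Neither Hsph1 (r = 0.725, adjusted permutation p = 0.0861) nor Dnajb1 (r = 0.647, adjusted permutation p = 0.169) passed.

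Within their own groups, the same 2 arrays also stood highest for immediate-early genes, which rise within minutes of stimulation or handling. The mean of the 22 listed immediate-early genes was 7.68 on BALB/c iNKT17 replicate 1, against 6.87 and 7.03 on the other 2 BALB/c iNKT17 arrays. It was 8.37 on BALB/c ROR- replicate 2, where replicates 1 and 3 of that group had 7.59 and 7.41. Fos, for example, stood at 8.26 on the first of these arrays and at 8.67 on the second, and at 4.52 to 6.99 on the other 10. Among the remaining BALB/c arrays the order was mixed. BALB/c iNKT17 replicate 2 had the lower immediate-early mean, 6.87, but Hspa1b at 7.81, and replicate 3 had 7.03 with Hspa1b at 4.62. In BALB/c ROR- cells replicates 1 and 3 kept the order, with Hspa1b at 8.12 and 4.93. The part of the immediate-early genes in the Hspa1a and Hspa1b spread was not tested.

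No group difference was called for either gene in the model without a replicate block, and the intervals were wide. Between strains, Hspa1b was 2.46 ± 1.23 higher in BALB/c than in B6 cells as the mean of iNKT17 and ROR- (adjusted p = 0.306, 95% interval -0.24 to 5.15). Hspa1a differed by 2.01 ± 1.33 in the same sense (adjusted p = 0.453, interval -0.89 to 4.91). Between iNKT17 and ROR- cells, as the mean of both strains, the differences were -1.05 ± 1.33 for Hspa1a (adjusted p = 0.721, interval -3.95 to 1.86) and -0.81 ± 1.23 for Hspa1b (adjusted p = 0.775, interval -3.50 to 1.89). Within BALB/c the Hspa1a difference, -0.54 ± 1.68, turned to 1.25 without BALB/c iNKT17 replicate 3 and to 0.99 without BALB/c ROR- replicate 2. All 4 intervals include 0, and those between cell types reach more than 1 log2 unit to either side of it. The model treated the arrays as unpaired, so the likeness of BALB/c arrays in order of level does not enter these intervals.

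Several of the best-known members were not called between any groups, while Hsp90b1 and Hspe1, which also work in unstressed cells, were and are described with their comparisons. Hspa8, the constant cytosolic HSP70 (HSC70), stayed between 12.21 and 12.36 on all 12 arrays, with a strain difference of 0.05 (95% interval -0.12 to 0.21) and a cell type difference of -0.01 (interval -0.17 to 0.16). Hspa8 has 4 probe sets of its own name, however, and 1 of the dimmer ones disagreed, at 10.16 to 11.13 on BALB/c arrays and 9.30 to 9.93 on B6 arrays with no overlap; that probe set was singled out after its values were seen. Hspa5 (BiP), the HSP70 of the endoplasmic reticulum (ER), differed by -0.13 between iNKT17 and ROR- cells (interval -0.43 to 0.16) and by -0.20 between BALB/c and B6 (interval -0.49 to 0.10). Hspa9, the mitochondrial HSP70, differed by -0.20 and 0.02 in these comparisons, and the BAG protein Bag1 by -0.02 and -0.10. For the small HSP Hspb1 the values were -0.06 and -0.04, for Dnajb1 -0.14 and -0.08, for Hsp90aa1 -0.08 and 0.06, for Hsph1 0.06 and 0.02, and for Bag3 -0.08 and 0.37. None of these 9 genes was called in any of the 9 comparisons. Over the tested members, 54 of 70 spanned less than 1 log2 unit across the 12 arrays. Their median span was 0.72, against 0.71 for all genes tested, so the members were no steadier than the array as a whole.

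The first group comparison asked which members differ between iNKT17 cells and ROR- cells, taken as the mean of both strains. Of the 70 tested members, 9 were called, 8 higher and 1 lower in iNKT17 cells (12.9%). Over all genes tested, 12.3% were called, 6.49% higher and 5.81% lower, so the members' share was near that of the array as a whole. Their median difference was -0.02, against -0.00 for all genes. Of the 9, 6 were J proteins, 2 were heat shock factors and 1 was the ER HSP90. J proteins were also most of the tested members, with 3 DNAJA, 10 DNAJB and 25 DNAJC genes. No HSP70, HSP110, BAG, small HSP or mitochondrial chaperonin gene was called, out of 11, 3, 6, 6 and 2 tested. These counts by family are small and single out no family.

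**Figure D2:**
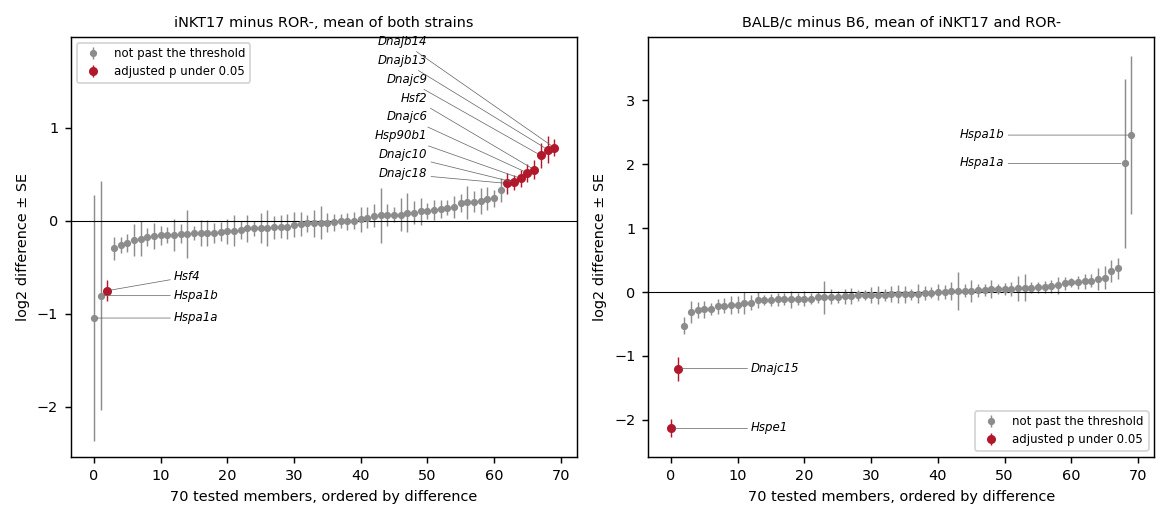
Log2 difference with its SE for the 70 tested members, ordered by size within each panel, for iNKT17 minus ROR- cells as the mean of both strains (left) and BALB/c minus B6 as the mean of iNKT17 and ROR- cells (right), with called genes in red. The 9 called members on the left lie between -0.75 and 0.79, while on the right Hspe1 at -2.13 and Dnajc15 at -1.20 stand clear of the others and the uncalled Hspa1a and Hspa1b carry the widest bars.

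Among the J proteins, Dnajb14, which sits in the ER membrane, had the smallest p. Its levels were 5.84, 5.95 and 6.13 in BALB/c iNKT17 cells, against 5.35, 5.43 and 5.52 in BALB/c ROR- cells, and 6.37 and 6.24 in B6 iNKT17 cells, against 5.26 and 5.28 in B6 ROR- cells. All 5 iNKT17 arrays were above all 5 ROR- arrays. The difference was 0.79 ± 0.09, a 1.73-fold change (adjusted p = 9.94e-05). A second, dimmer probe set of Dnajb14 lay between 3.11 and 3.91 on all arrays, near the level below which genes were not tested.

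Dnajb13, a J protein of sperm flagella and motile cilia, rose as well. It had levels of 6.93, 6.26 and 6.90 in BALB/c iNKT17 cells, against 5.57, 5.81 and 5.84 in BALB/c ROR- cells, and 7.21 and 6.86 in B6 iNKT17 cells, against 6.47 and 6.43 in B6 ROR- cells. Within each strain the iNKT17 arrays were higher, but B6 ROR- arrays overlapped the BALB/c iNKT17 range. The difference was 0.77 ± 0.14 (adjusted p = 0.00317).

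Dnajc9, a co-chaperone for histones, had levels of 9.04, 9.25 and 8.97 in BALB/c iNKT17 cells, against 8.51, 8.58 and 8.09 in BALB/c ROR- cells, and 9.18 and 9.57 in B6 iNKT17 cells, against 8.50 and 8.83 in B6 ROR- cells. Every iNKT17 array was above every ROR- array, and the difference was 0.70 ± 0.13 (adjusted p = 0.00354). Of the 18 tested cell cycle genes, limma called 0 in this comparison, with 0 at an unadjusted p under 0.05 and a median difference of 0.64. Their part in the Dnajc9 difference was not tested.

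Dnajc6 (auxilin), which uncoats clathrin vesicles with HSP70, rose too. It stood at 4.85, 4.89 and 4.95 in BALB/c iNKT17 cells, against 4.59, 4.18 and 4.58 in BALB/c ROR- cells, and at 4.83 and 4.83 in B6 iNKT17 cells, against 4.25 and 4.24 in B6 ROR- cells. The arrays of the cell types did not overlap, and the difference was 0.51 ± 0.10 (adjusted p = 0.00528).

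Hsp90b1 and Dnajc10, whose proteins also work in the ER, rose too; members were grouped by the ER here after their values were seen. Hsp90b1 (GRP94 or gp96), the ER HSP90 that folds Toll-like receptors and integrins, had levels of 11.21, 11.53 and 11.27 in BALB/c iNKT17 cells, against 11.01, 10.90 and 10.74 in BALB/c ROR- cells, and 11.39 and 11.51 in B6 iNKT17 cells, against 10.93 and 11.06 in B6 ROR- cells. Its arrays did not overlap, and the difference was 0.45 ± 0.10 (adjusted p = 0.0078). Dnajc10 (ERdj5), an ER J protein that reduces disulfides, had levels of 7.75, 7.82 and 7.76 in BALB/c iNKT17 cells, against 7.48, 7.56 and 7.50 in BALB/c ROR- cells, and 7.81 and 7.90 in B6 iNKT17 cells, against 7.28 and 7.31 in B6 ROR- cells. Again no ROR- array reached an iNKT17 array, and the difference was 0.41 ± 0.08 (adjusted p = 0.00466). Dnajb11 (ERdj3), a partner of BiP in the ER, differed by 0.33 ± 0.13 and did not pass (adjusted p = 0.142), and BiP itself, Hspa5, differed by -0.13. Other ER members, such as Dnajb9, Dnajb12 and Dnajc3, were not called in this comparison either, so the called genes are only a part of the ER members.

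The promoter window of Hsp90b1 (RefSeq GRCm38.p6, chr10:86705395-86705694, minus strand) is shown because this gene was the called member that held an ER stress element, the site through which ATF6 acts, here searched on both strands as CCAAT and CCACG parted by 9 bases. Capitals mark its 2 copies, the second of them on the other strand.
Hsp90b1: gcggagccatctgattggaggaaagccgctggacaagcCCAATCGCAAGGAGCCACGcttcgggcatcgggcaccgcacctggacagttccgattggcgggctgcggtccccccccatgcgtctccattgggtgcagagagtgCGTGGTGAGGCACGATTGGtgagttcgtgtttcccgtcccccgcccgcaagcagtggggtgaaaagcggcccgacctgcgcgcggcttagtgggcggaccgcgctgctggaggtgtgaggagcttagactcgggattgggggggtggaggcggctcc
The copies start 212 and 107 bases before the annotated start. The element was present in 3 of the 62 members with a window (4.84%: Hsp90b1, Hspa5 and Dnajc3), against 0.137% of all genes with one. Hspa5 and Dnajc3, an ER J protein that inhibits eIF2alpha kinases, carried it and were called in none of the 9 comparisons.

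The heat shock factors moved in opposite directions. Hsf2, a heat shock factor active in development and in proteasome stress, had levels of 6.06, 6.02 and 5.86 in BALB/c iNKT17 cells, against 5.57, 5.38 and 5.23 in BALB/c ROR- cells, and 5.79 and 5.75 in B6 iNKT17 cells, against 5.09 and 5.42 in B6 ROR- cells. All iNKT17 arrays were higher, by 0.55 ± 0.10 (adjusted p = 0.00375). Of the nearest tested neighbours of Hsf2 on the chromosome, Gja1 was higher by 3.80, while Serinc1 differed by 0.08 and was not called (adjusted p = 0.653). Dnajc10 and Dnajb14 also had 1 called neighbour each, Nckap1 (0.74, adjusted p = 0.000115) and Lamtor3 (0.34, adjusted p = 0.018). No nearest tested neighbour of the other members called in this comparison was called. Hsf4, a heat shock factor best known from the lens, fell, with levels of 4.90, 4.81 and 4.56 in BALB/c iNKT17 cells, against 5.68, 5.53 and 5.30 in BALB/c ROR- cells, and 4.87 and 4.63 in B6 iNKT17 cells, against 5.50 and 5.52 in B6 ROR- cells. Its difference was -0.75 ± 0.11 (adjusted p = 0.000799), with no overlap between the cell types.

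The last called member, Dnajc18, another J protein of the ER membrane, had levels of 7.20, 7.08 and 7.12 in BALB/c iNKT17 cells, against 6.78, 6.76 and 6.19 in BALB/c ROR- cells, and 7.0 and 7.10 in B6 iNKT17 cells, against 6.83 and 6.79 in B6 ROR- cells. Its difference of 0.40 ± 0.12 was close to the threshold (adjusted p = 0.0435). It stayed past it only when a BALB/c ROR- array was left out, with an adjusted p of 0.0232 to 0.15 over the 12 single omissions. The other 8 called members stayed past it in all 12. The RefSeq annotation places other genes over Dnajb14, Dnajc6 and Hsf2 (among them Gm40155, Gm36012 and 4930467K11Rik). It also places Gm35838 over Dnajc4, a member called in another comparison. Which transcripts a probe set reads at these genes was not examined.

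Taken strain by strain, 7 members were called in BALB/c, where 6.97% of all genes were called, and 3 in B6, where 5.99% were. In BALB/c iNKT17 cells Dnajb13 was higher by 0.95 ± 0.18 (adjusted p = 0.00596), Dnajc9 by 0.70 ± 0.16 (0.0246), Hsf2 by 0.59 ± 0.13 (0.0171), Dnajc18 by 0.56 ± 0.15 (0.042), Dnajb14 by 0.54 ± 0.11 (0.012) and Hsp90b1 by 0.45 ± 0.12 (0.0452), and Hsf4 differed by -0.75 ± 0.14 (0.0074). Only Dnajb13 and Hsf4 passed with every array left out in turn, and Hsp90b1 passed in 1 of the 12 omissions and Dnajc18 in 2. The count of 7 became 3 without BALB/c iNKT17 replicate 1, 2 or 3 or BALB/c ROR- replicate 3. In B6 iNKT17 cells Dnajb14 was higher by 1.03 ± 0.14 (adjusted p = 0.000726) and Dnajc10 by 0.56 ± 0.12 (0.0192), while Hsf4 differed by -0.76 ± 0.18 (0.0242). Without any 1 of the B6 iNKT17 or B6 ROR- arrays that count of 3 became 1, Dnajb14 alone, and without BALB/c ROR- replicate 3 it became 5. It was 6 with quantile normalization and 6 with array weights. The largest uncalled differences in BALB/c were -0.54 for Hspa1a, 0.45 ± 0.24 for Dnajc15 and 0.44 ± 0.13 for Dnajc6 (adjusted p = 0.0633), and in B6 -1.55 for Hspa1a, -1.25 for Hspa1b and -0.84 ± 0.29 for Dnajc15 (adjusted p = 0.149).

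That a gene was called in 1 strain does not show that the strains differ. The interaction, the BALB/c difference minus the B6 difference, called 0 members by limma and 0.084% of all genes, and 4 members had an unadjusted p under 0.05. The value was -0.49 ± 0.18 for Dnajb14 (adjusted p = 0.988), 0.37 ± 0.28 for Dnajb13 (0.999) and 0.01 ± 0.23 for Hsf4 (0.999). The largest was that of Dnajc15, 1.29 ± 0.37 (adjusted p = 0.64).

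In B6 mice, gamma-delta 17 cells allowed a second type 17 lineage to be set against the same ROR- arrays that serve the B6 iNKT17 comparison. Of the 70 tested members, 3 were called, 2 higher and 1 lower, where 6.02% of all genes were called. Dnajc6 stood at 5.29 and 5.54 in gamma-delta 17 cells, against 4.25 and 4.24 in B6 ROR- cells, a difference of 1.17 ± 0.16 or 2.25-fold (adjusted p = 0.000775). Dnajb14 stood at 6.23 and 6.06, against 5.26 and 5.28, a difference of 0.87 ± 0.14 (adjusted p = 0.00242), which did not pass when its 2 probe sets were averaged (0.46, adjusted p = 0.0774). For both genes the gamma-delta 17 arrays lay well clear of the ROR- arrays. Dnajc4, a J protein, stood at 6.92 and 7.06 in gamma-delta 17 cells, against 7.64 and 7.58 in B6 ROR- cells, a difference of -0.62 ± 0.14 (adjusted p = 0.02). This call was lost without any 1 of these 4 arrays (adjusted p = 0.0542 to 0.128), and the count of 3 became 5 without BALB/c iNKT17 replicate 2. The largest uncalled differences were -1.92 ± 2.05 for Hspa1a, -1.80 ± 1.90 for Hspa1b and -0.82 ± 0.29 for Dnajc15 (adjusted p = 0.144). Gamma-delta 17 replicate 1 was the array with neutrophil markers, with S100a8 at 9.30, and their part in these values was not tested.

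Set against each other, the type 17 lineages of B6 mice gave 0 called members by limma, where 0.168% of all genes were called, and 6 members had an unadjusted p under 0.05. Dnajc6 was lower in iNKT17 cells, at 4.83 and 4.83, against 5.29 and 5.54 in gamma-delta 17 cells, but its difference of -0.59 ± 0.16 did not pass (adjusted p = 0.267). Dnajb4, a cytosolic J protein, stood at 3.98 and 4.52 in iNKT17 cells, against 4.88 and 4.82 in gamma-delta 17 cells (difference -0.60 ± 0.28, adjusted p = 0.587). Hspa1b differed by 0.54 ± 1.90.

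The comparison of strains, which is the stated subject of the series, gave few called members. As the mean of iNKT17 and ROR- cells, BALB/c minus B6 called 2 of 70, both lower in BALB/c, where 4.58% of all genes were called. The median difference was -0.04 for the members and 0.02 for all genes. In iNKT17 cells alone 1 member was called (1.48% of all genes), and in ROR- cells alone 2 were (1.22% of all genes). Both genes encode mitochondrial proteins.

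Hspe1 encodes HSP10, the lid that closes the HSP60 folding chamber. Its levels were 8.38, 7.80 and 7.95 in BALB/c iNKT17 cells and 8.26, 8.18 and 8.01 in BALB/c ROR- cells, against 10.09 and 10.22 in B6 iNKT17 cells and 10.31 and 10.30 in B6 ROR- cells. The gamma-delta 17 cells of B6 mice stood at 9.60 and 10.23. All 6 BALB/c arrays lay below all 6 B6 arrays, by at least 1 log2 unit. The difference was -2.13 ± 0.14, a 4.39-fold lower level in BALB/c (adjusted p = 8.04e-06, 95% interval -2.44 to -1.82). It was -2.11 ± 0.20 in iNKT17 cells and -2.16 ± 0.20 in ROR- cells (adjusted p = 0.000252 and 0.000231), and it passed with each of the 12 arrays left out.

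Hspd1, which encodes HSP60 itself and shares its promoter region with Hspe1, did not follow. It had levels of 9.32, 9.58 and 9.18 in BALB/c iNKT17 cells and 9.70, 9.59 and 9.18 in BALB/c ROR- cells, against 9.36 and 9.87 in B6 iNKT17 cells and 9.50 and 9.80 in B6 ROR- cells. The strains overlapped, and the difference was -0.21 ± 0.14 (adjusted p = 0.475, 95% interval -0.52 to 0.10). Other neighbours of Hspe1 on the chromosome, Mob4 (-0.04), Coq10b (-0.15) and Sf3b1 (0.08), were not called either. Probe sequences were not used here, so a lower Hspe1 transcript level and weaker binding of BALB/c sequence to the probes cannot be told apart.

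**Figure D3:**
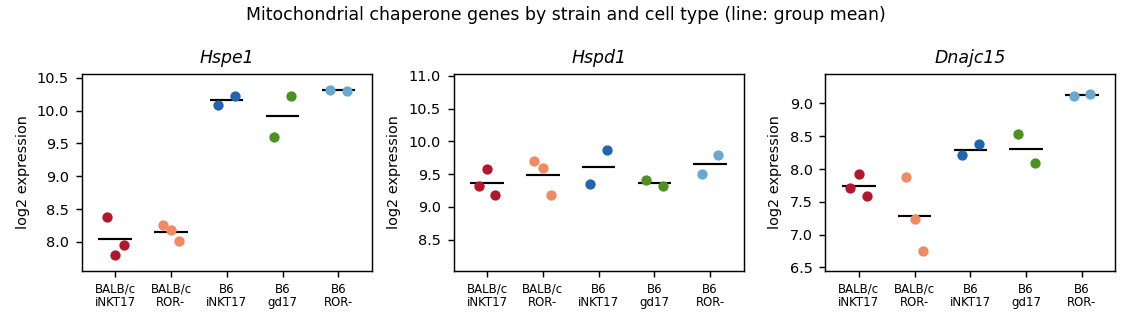
Log2 expression (vertical axis, each panel spanning at least 3 log2 units) of Hspe1, Hspd1 and Dnajc15 on each of the 12 arrays (points) with the group mean as a line, where gd17 stands for gamma-delta 17. The 6 BALB/c points of Hspe1, at 7.80 to 8.38, lie below the 6 B6 points, at 9.60 to 10.31, while the strains overlap for Hspd1 and the Dnajc15 gap is widest in ROR- cells.

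The promoter window of Hspe1 (RefSeq GRCm38.p6, chr1:55087898-55088197, plus strand) is shown because of this unequal pair. It shares 285 of its 300 bases with a window of Hspd1 on the opposite strand (chr1:55087883-55088182), whose start lies 216 bases away. Capitals mark 3 overlapping heat shock elements, which lie in the shared stretch and start 89, 84 and 79 bases before the annotated Hspe1 start.
Hspe1: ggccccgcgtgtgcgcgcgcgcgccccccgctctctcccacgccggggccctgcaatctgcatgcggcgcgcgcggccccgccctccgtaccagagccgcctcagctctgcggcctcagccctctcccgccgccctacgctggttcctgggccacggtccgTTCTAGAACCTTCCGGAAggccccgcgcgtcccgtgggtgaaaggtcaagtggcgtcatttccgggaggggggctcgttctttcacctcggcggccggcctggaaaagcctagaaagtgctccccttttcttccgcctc

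Dnajc15 (MCJ), a J protein of the inner mitochondrial membrane, was the other called gene. Its levels were 7.71, 7.92 and 7.59 in BALB/c iNKT17 cells and 7.89, 7.24 and 6.75 in BALB/c ROR- cells, against 8.21 and 8.38 in B6 iNKT17 cells and 9.12 and 9.15 in B6 ROR- cells. Gamma-delta 17 cells stood at 8.54 and 8.09. Again no BALB/c array reached a B6 array. The difference was -1.20 ± 0.19, a 2.30-fold lower level in BALB/c (adjusted p = 0.00372), and it passed with each array left out. In ROR- cells it was -1.84 ± 0.26 (adjusted p = 0.00467), a call that leaving out B6 ROR- replicate 1 ended (adjusted p = 0.0557), as did leaving out replicate 2 (0.0737), which turned the count of 2 into 1. In iNKT17 cells it was -0.56 ± 0.26 and did not pass (adjusted p = 0.419). The difference between these values is the interaction given above, which did not pass. As for Hspe1, a lower Dnajc15 transcript level and weaker binding of BALB/c sequence to the probes cannot be told apart. Epsti1, the next gene on the chromosome, was also lower in BALB/c, with a difference of -0.89 ± 0.13 (adjusted p = 0.00293), as was Tnfsf11 nearby (-0.53 ± 0.11, adjusted p = 0.0248). The other tested neighbours were not called and differed in the opposite direction. They were Gm1587 (0.27) and Enox1 (0.14) on the other side, and Fam216b (0.26), which lies between Epsti1 and Tnfsf11.

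Of 18 cell cycle genes, limma called 6 lower in BALB/c as the mean of both cell types, where 4.58% of all genes were called. All 18 had an unadjusted p under 0.05, and their median was -1.65. The BALB/c arrays with the highest cell cycle means were iNKT17 replicate 2 at 8.37 and ROR- replicate 1 at 7.66. Hspe1 stood at 7.80 and 8.26 on these arrays, within the 7.80 to 8.38 of the strain. Dnajc15 stood at 7.92 and 7.89 there, its 2 highest BALB/c levels. The part of the cell cycle genes in either strain difference was not tested.

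After those of Hspa1a and Hspa1b, the largest uncalled strain differences were that of Dnajb13 in ROR- cells, -0.71 ± 0.20 (adjusted p = 0.14), that of Dnajc15 in iNKT17 cells, given above, and that of Dnajb13 as the mean of both cell types, -0.52 ± 0.14 (adjusted p = 0.0574). As the mean of both cell types, strain differences ranged from -0.22 to 0.37 for BAG genes, from -0.04 to 0.03 for DNAJA genes, from -0.52 to 0.23 for DNAJB genes, from -0.12 to 0.02 for HSP110 genes, from -0.11 to 0.06 for the HSP90 genes and from -0.27 to 0.09 for small HSPs. Between iNKT17 and ROR- cells the ranges were -0.10 to 0.15 for BAG, -0.17 to 0.24 for DNAJA, -0.14 to 0.24 for HSP110 and -0.18 to 0.13 for small HSPs. The J protein families held 6 of the 9 called genes there and also most of the tested members. They ran from -0.15 to 0.79 over the 10 tested DNAJB genes and from -0.30 to 0.70 over the 25 tested DNAJC genes. No gene of the BAG, DNAJA, HSP110 or small HSP families, with 6, 3, 3 and 6 tested genes, was called in any of the 9 comparisons.

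The wider folding network was read through gene lists set beside the members. Of 21 HSP70 and HSP90 co-chaperones outside the families, 1 rose in iNKT17 over ROR- cells as the mean of both strains (12.3% of all genes were called), Sugt1, an HSP90 partner, by 0.75 ± 0.09 (adjusted p = 0.00015). It also rose in gamma-delta 17 cells, by 0.64 ± 0.14 (adjusted p = 0.0175). Of 14 cytosolic chaperonin and prefoldin genes, 2 rose, Pfdn1 by 0.46 ± 0.13 (adjusted p = 0.0325) and Pdcl3 by 0.37 ± 0.11 (adjusted p = 0.0472), and between strains 1, Pfdn6, was lower in BALB/c (difference -0.47 ± 0.12, adjusted p = 0.0444). Of 14 mitochondrial proteostasis genes, limma called 0 in this comparison, with 2 at an unadjusted p under 0.05, and 0 between strains, with 0. Of 9 other stress-inducible genes, 1 rose, Srxn1, an antioxidant enzyme, by 0.58 ± 0.11 (adjusted p = 0.00446).

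ER folding and unfolded protein response genes split. Of 27, 3 rose and 3 fell in iNKT17 cells, with a median of 0.20, where 6.49% of all genes were called higher and 5.81% lower. Atf6, the membrane-bound factor that switches on ER chaperone genes, rose by 1.11 ± 0.08 (adjusted p = 2.41e-06). The others that rose, named after their values were seen, were Edem1 (0.45 ± 0.11, adjusted p = 0.0169) and Derl1 (0.42 ± 0.11, adjusted p = 0.0256), both of the pathway that clears misfolded ER proteins. Eif2ak3 (PERK), the kinase that slows translation under ER stress, fell by 0.84 on the log2 scale (SE 0.10, adjusted p = 0.000206), Ppp1r15a, which reverses that brake, differed by -1.29 ± 0.38 (adjusted p = 0.0465), and Ckap4, an ER membrane protein, by -0.70 ± 0.13 (adjusted p = 0.00428). In gamma-delta 17 against ROR- cells Atf6 was higher by 1.29 ± 0.12 (adjusted p = 6.34e-05) and Eif2ak3 differed by -1.03 ± 0.16 (adjusted p = 0.00221). Of 21 tested immediate-early genes, 0 rose, 6 fell and 15 were not called in iNKT17 cells, where 5.81% of all genes were called lower, and their median was -0.50. The 4 largest falls were those of Ier3 (-1.99 ± 0.20), Myc (-1.83 ± 0.16), Egr3 (-1.71 ± 0.15) and Dusp2 (-1.65 ± 0.19). In gamma-delta 17 against ROR- cells, 8 of the 21 fell, where 6.02% of all genes were called in either direction.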

How the data were processed

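The authors deposited 1 table of log2 values for 12 arrays, with 41345 probe sets. Per the submitters' processing notes it was made with oligo; no version, summarisation or normalization method is stated in the labels or headers, and the log base was inferred from the range of values. Array medians lay between 4.10 and 4.30, and values were used as deposited.

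Names came from the platform annotation: of the probe sets, 23521 had 1 symbol, 1814 several and 16010 none. Of those with 1 symbol, 23328 matched RefSeq (GRCm38.p6) and 0 symbols changed. For the 1082 genes with several probe sets the brightest was kept.

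A group-means model over all 12 arrays was fitted with limma 3.58.1 in R 4.3.3 (lmFit and eBayes, no trend, not robust; 7 residual and 4.50 prior degrees of freedom), giving 9 comparisons adjusted over 16667 genes. Fits were tested on simulated data. Arrays number 2 or 3 per group, which limits precision. Correlations and tables used Python 3.11.15, NumPy 2.4.6, SciPy 1.17.1 and pandas 2.3.3.

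Named genes were a fixed anchor set, members called in any comparison, the 3 largest uncalled members per comparison, and up to 4 called genes per other list. Members and lists were chosen with earlier results of these data known. Alternatives were 7 other settings (median centring, quantile normalization, no filter, a filter at the 50th percentile, a log2 level of 4.40, the mean of a gene's probe sets, array weights and a replicate block) and the omission of each of the 12 arrays.

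Same-numbered arrays of different groups did not consistently deviate together (r from -0.46 to 0.47 over 21 pairs, above 0.1 in 8), so replicate numbers were not taken as pairs. Some did, such as the B6 ROR- and B6 iNKT17 arrays (r = 0.47). Arrays with different numbers could also deviate together, such as BALB/c ROR- replicate 1 and BALB/c iNKT17 replicate 2 (r = 0.52). BALB/c ROR- replicate 2 and BALB/c iNKT17 replicate 1 did so as well (r = 0.37), and replicate 3 of both groups less (r = 0.14). These are the BALB/c arrays that were alike in Hspa1a and Hspa1b level. The labels do not say which arrays were prepared together, and pairing across numbers was not modelled.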

Additional observations from a re-analysis of the deposited data

How the results depend on the processing

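The 12 called members gave 27 calls over the 9 comparisons. Over 19 alternatives each, 455 of these values kept direction and call and 58 kept direction but not the call, and none reversed. The count of members called between iNKT17 and ROR- cells over both strains stayed at 8 to 9 with arrays left out. The BALB/c count of 7 ran from 3 to 8. The B6 count of 3 ran from 1 to 5 with arrays left out and became 6 with quantile normalization and 6 with array weights. The BALB/c minus B6 count of 2 in ROR- cells ran from 1 to 3, and the gamma-delta 17 minus ROR- count of 3 ran from 2 to 5. The strain count of 2, mean of both cell types, became 4 with a replicate block. The block added Hspa1a at 3.84 (adjusted p = 0.0155) and Hspa1b at 4.04 (adjusted p = 0.0222), but same-numbered arrays did not consistently deviate together. Dnajb13 joined the strain calls with median centring (-0.59, adjusted p = 0.0336) and with array weights (-0.49, adjusted p = 0.0475). Dnajc6 joined the BALB/c calls between iNKT17 and ROR- cells with median centring (0.49, adjusted p = 0.0438). It also did so with quantile normalization (0.47, adjusted p = 0.0369) and with array weights (0.50, adjusted p = 0.03). Dnajc18, between iNKT17 and ROR- cells, was lost with median centring over both strains (0.43, adjusted p = 0.0579) and in BALB/c (0.60, adjusted p = 0.0565). The BALB/c call of Hsp90b1 was lost with median centring (0.49, adjusted p = 0.0553) and with array weights (0.39, adjusted p = 0.0687), and the Dnajb14 call in gamma-delta 17 minus ROR- with the mean of its probe sets (0.46, adjusted p = 0.0774).

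The 27 largest uncalled values, 3 per comparison, were followed over the same alternatives, and the 9 reversals among them were of Hspa1a and Hspa1b. Over all members, 279 of the 603 uncalled differences changed sign with some array left out. With arrays left out, Hspa1a ran from -2.40 to 1.25 for iNKT17 minus ROR- in BALB/c, from -0.84 to 2.80 for the interaction and from -0.023 to 3.36 for BALB/c minus B6 in ROR-. The Hspa1b interaction ran from -0.69 to 2.49, and with array weights the interactions were -0.49 for Hspa1a and -0.40 for Hspa1b. The cause was not tested. Median centring moved the median of all genes by 0.11 in iNKT17 minus gamma-delta 17, where no member was called, and by less elsewhere. Lone arrays left in a group are assumed to vary like the other groups. Members near the dim level, such as Hspa12a, Hspa1l and Dnajc5b, have differences of uncertain size.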
